A study of Homo sapiens with 17 samples.

Results

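The plasminogen activators urokinase (PLAU) and tissue-type activator (PLAT), the urokinase receptor PLAUR, and the inhibitors SERPINE2 and SERPINB2 were followed across the 3 groups of an RNA sequencing experiment on oncogene-induced senescence. They were taken by name, with earlier results of these data known, and are 5 of the 62754 gene rows of each table. All 5 were among the 19473 genes tested. IMR90 ER:RAS cells are human lung fibroblasts into which a retrovirus brought an activated RAS joined to part of the oestrogen receptor, so that 4-hydroxytamoxifen (4OHT) switches the oncogene on. All 17 libraries came from this 1 line, received an siRNA 1 day before 4OHT or its solvent DMSO, and were collected 7 days after the addition. DMSO siNT (n = 5) held growing cells and 4OHT siNT (n = 6) senescent cells, both with a non-targeting siRNA. 4OHT siSMARCA4 (n = 6) held senescent cells with siRNA against SMARCA4, labelled siSMARCA4_2 or siSMARCA4_4. SMARCA4 is one of the ATPases that drive SWI/SNF chromatin remodellers. No library combined DMSO with siSMARCA4, so the knockdown was measured in senescent cells alone. The library names also hold a number, 2 or 4, after the name of the siRNA, siNT included, and a tag that ends in V or VM. The labels explain neither, and do not say that siNT and siSMARCA4 libraries of the same number belong together. The 4OHT siSMARCA4 group may therefore pool 2 different siRNAs against SMARCA4.

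Plasminogen is a circulating zymogen, and urokinase and tissue-type activator are the serine proteases that cut it into plasmin. Plasmin dissolves fibrin and degrades extracellular matrix. Urokinase acts mainly at the cell surface, where it is held by its receptor, whereas tissue-type activator works best when bound to fibrin. Serpins trap these proteases by forming a covalent complex with them: SERPINB2 (PAI-2) acts on urokinase and stays largely inside the cell, and SERPINE2 (protease nexin-1) blocks thrombin, urokinase and plasmin. The receptor, both activators and several of these serpins are known parts of the senescence-associated secretory phenotype (SASP), the set of proteins that senescent cells release.

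Sequence ahead of the start sites is shown because the members were compared as transcripts that rose together. The RefSeq promoter table (GRCh38.p14) held 6 windows for 4 of the 5 members, not for PLAT. The 250 bases before each start were searched on both strands for 6 motifs, and capitals mark every match. They were the AP-1 motif TGANTCA, the cyclic AMP response element TGACGTCA and the TATA box TATAAA. The others were a kappa B motif, the CCAAT box and the GC box, which was searched as GGGCGG. Bases that lie in an annotated exon of the same gene are left out, apart from a short stretch around the PLAUR match.
SERPINB2, chr18:63887455-63887704, plus strand: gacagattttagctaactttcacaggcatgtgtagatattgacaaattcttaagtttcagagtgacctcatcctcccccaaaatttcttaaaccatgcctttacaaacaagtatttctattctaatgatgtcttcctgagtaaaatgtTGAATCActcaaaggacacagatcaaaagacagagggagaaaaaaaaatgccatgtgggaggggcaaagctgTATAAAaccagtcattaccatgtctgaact
PLAU, chr10:73910882-73911103, plus strand: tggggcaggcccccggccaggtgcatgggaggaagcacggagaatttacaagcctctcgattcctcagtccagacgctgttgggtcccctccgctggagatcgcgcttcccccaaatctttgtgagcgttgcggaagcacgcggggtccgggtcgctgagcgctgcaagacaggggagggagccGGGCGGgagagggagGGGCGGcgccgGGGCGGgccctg
PLAUR, chr19:43670338-43670366, minus strand: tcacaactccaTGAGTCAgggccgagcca
SERPINE2, chr2:224031479-224031728, minus strand: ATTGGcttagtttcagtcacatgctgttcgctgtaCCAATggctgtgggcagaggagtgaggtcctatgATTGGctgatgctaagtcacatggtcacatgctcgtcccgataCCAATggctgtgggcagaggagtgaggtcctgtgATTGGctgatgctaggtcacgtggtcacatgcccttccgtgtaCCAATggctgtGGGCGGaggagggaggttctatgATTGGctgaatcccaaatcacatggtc

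SERPINB2 held TGAATCA 102 bases before its start and TATAAA 30 bases before it, in a window of 37.2% G and C. The PLAUR stretch held TGAGTCA, which began 186 bases before the start. PLAU and SERPINE2 each had 2 windows, of which 1 is shown. The PLAU window shown held 3 copies of GGGCGG and had 68.8% G and C, while the other held a CCAAT box but no GC box and had 46.8% G and C. The SERPINE2 window shown held 7 CCAAT boxes in either direction and a GC box, and the other held 2 GC boxes and no CCAAT box. TGANTCA was found in 2 of the 6 windows of members and in 6.57% of all 35116 windows of that length. TATAAA was in 1 of the 6 and in 10.7% of all windows, CCAAT in 2 and in 32%, and GGGCGG in 3 and in 42.6%. TGACGTCA (1.65% of all windows) and the kappa B motif (1.26%) were in none of the 6. A match describes the letters of the window and says nothing of use, and these libraries do not tell which start site a transcript came from.

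Library totals ranged from 39109479 to 68978119 counts. Levels are given as CPM, the share of a library's counts on the usual per-million scale after TMM scaling, with the SD between libraries, and a gene is called where the edgeR quasi-likelihood test gave a Benjamini-Hochberg adjusted p under 0.05 over all genes tested. The labels do not say that the libraries of a group came from separate cultures, so p-values measure the spread between these libraries. SMARCA4 itself checked the labels: it was at 268 ± 13.2 CPM in 4OHT siNT and 88.1 ± 22.8 CPM in 4OHT siSMARCA4, a log2 fold change of -1.61 (SE 0.13, adjusted p 5.14e-07 in edgeR), with every knockdown library below every control. Of 9 fibroblast markers all were above 1 CPM in each group, but their summed level was 22920 to 27538 CPM in DMSO siNT, 13460 to 17551 CPM in 4OHT siNT and 7564 to 10896 CPM in 4OHT siSMARCA4. Of these 9, 7 were called lower and 1, FAP, higher with 4OHT, and 7 were called lower with the knockdown. Of all genes tested, 27.4% were called lower and 27% higher with 4OHT, and 13.8% lower with the knockdown. The part of the fibroblast markers in the results was not tested. The 5 epithelial markers summed to 82.5 to 120 CPM in DMSO siNT, 53.8 to 71.3 CPM in 4OHT siNT and 26.8 to 47.2 CPM in 4OHT siSMARCA4. Of 3 tested, 2 were called lower with 4OHT and 3 with the knockdown. KRT18 averaged 63.3, 59.0 and 40.4 CPM in the 3 groups, KRT19 in 4OHT siNT was at 3.27% of its DMSO siNT level, and KRT5 was at 0 in every library. The 5 leukocyte markers summed to 20.0 to 30.5 CPM over all libraries, nearly all of it CD68, and neither of the 2 tested was called in these comparisons. KIT, the only tested gene of the 4 on the mast cell and megakaryocyte list, averaged 13.3, 0.441 and 0.107 CPM and was called lower in both. PF4 had 0, 25 and 25 counts over the libraries of the 3 groups, ITGA2B 35, 26 and 49, and TPSAB1 0, 2 and 0. The part of these markers in the results was not tested. In bulk libraries, fewer cells making a transcript and less transcript per cell cannot be told apart.

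Senescence was addressed by 4OHT siNT against DMSO siNT, and all 5 members, chosen with earlier results of these data known, rose. SERPINB2 and PLAT rose by 9.25-fold and 7.84-fold, PLAU rose 4.75-fold, and PLAUR and SERPINE2 rose about as much as each other, by 1.98-fold and 1.95-fold. The rise of SERPINB2 was 12.8-fold with the libraries of number 2 alone and 6.14-fold with those of number 4, where PLAT rose 7.32-fold and 8.04-fold, so the order of the 2 genes turned on the libraries used. In DMSO siNT number 2 held 2 V and 1 VM library and number 4 held VM libraries alone, so number and tag are partly confounded in this split. For each of the 5 every 4OHT siNT library lay above every DMSO siNT library. For comparison, 27% of all genes tested were called higher in this contrast and 19.6% had no overlap between libraries in that direction, so that such a rise was common in these cells. The 5 transcripts together took 1608 ± 141 CPM in DMSO siNT and 8120 ± 436 CPM in 4OHT siNT.

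**Figure D1:**
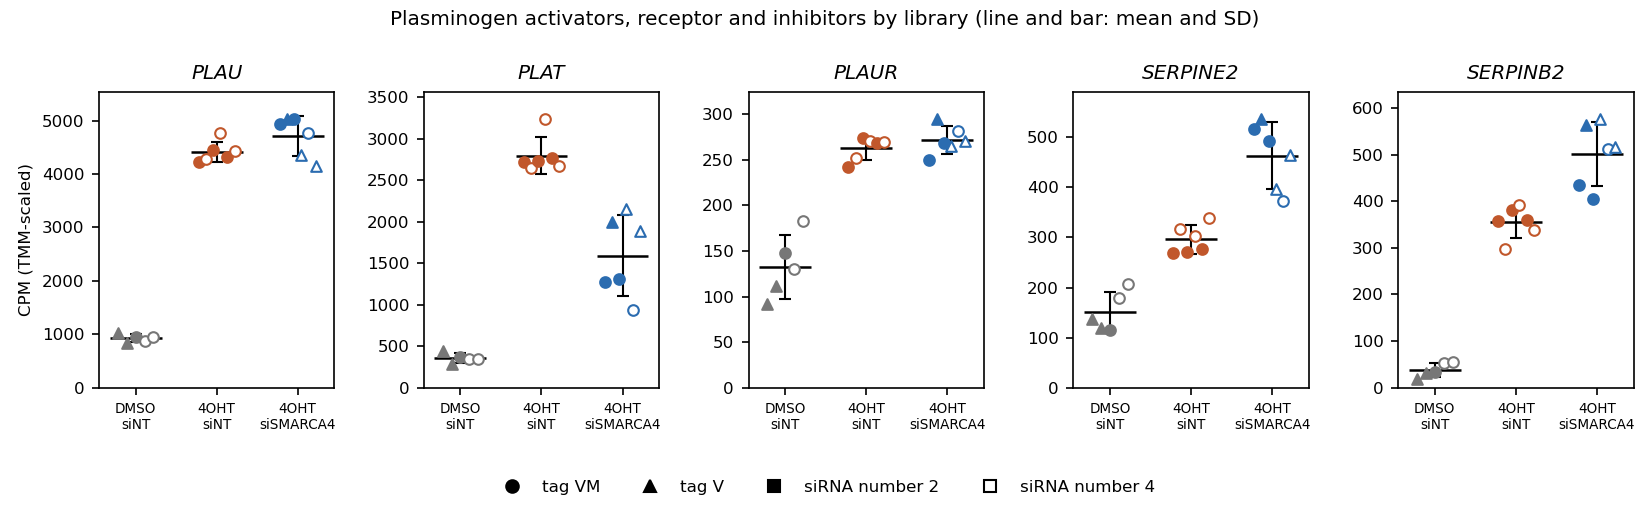
Level of each of the 5 genes in CPM (y axis, linear, from 0) in every library of DMSO siNT, 4OHT siNT and 4OHT siSMARCA4 (x axis). Circles are VM and triangles V libraries, filled symbols carry siRNA number 2 and open ones number 4, and lines with bars are the mean and SD. PLAT in siSMARCA4 splits into V libraries at 1886 to 2157 CPM and VM libraries at 934 to 1305 CPM.

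Urokinase, PLAU (ENSG00000122861, GRCh38 10:73909177-73917496, plus strand), was at 1029, 839, 948, 881 and 949 CPM in the DMSO siNT libraries. The 4OHT siNT libraries held 4232 to 4763 CPM, with a median of 4374 CPM and a mean of 4410 ± 193 CPM, so the groups were far apart relative to their spread. The log2 fold change was 2.25 (SE 0.08, adjusted p 1.10e-13 in edgeR). Levels differed little with the tag in DMSO siNT, where the V mean was 934 CPM and the VM mean 926 CPM. The row C10orf55, a noncoding gene that overlaps PLAU on the other strand, averaged 61.7 CPM over all libraries. It rose too, by 2.24 on the log2 scale (SE 0.56). The counting used strand, and whether pairs from PLAU reached this row was not tested.

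Tissue-type activator, PLAT (ENSG00000104368, GRCh38 8:42174718-42207709, minus strand), was at 440, 283, 374, 345 and 342 CPM in DMSO siNT. In 4OHT siNT PLAT was at 2721, 2648, 2729, 3244, 2767 and 2668 CPM, and the library with number 4 and tag 2VM stood above the other five. The log2 fold change was 2.97 (SE 0.19, adjusted p 2.05e-10 in edgeR). PLAT is also a product of endothelial cells. The 5 endothelial markers summed to 3.44 to 10.8 CPM in DMSO siNT, 9.62 to 14.1 CPM in 4OHT siNT and 6.78 to 10.4 CPM in 4OHT siSMARCA4. Their medians of 5.78, 11.6 and 9.39 CPM moved as PLAT did, but the groups overlapped. In each group 2 of the 5 averaged above 1 CPM, VWF at 1.11, 3.76 and 2.60 CPM and TEK at 4.98, 6.79 and 5.94 CPM. PECAM1 averaged 0.0145, 0.936 and 0.341 CPM and was called in the same directions as PLAT, higher with 4OHT and lower with the knockdown (-1.43, SE 0.33, adjusted p 0.0046 in edgeR). CDH5 was at 0 in DMSO siNT and averaged 0.0411 and 0.0390 CPM in the other groups. Of 4 tested, 3 were called higher with 4OHT (27% of all genes) and 1, PECAM1, lower with the knockdown (13.8%). KDR, among those called higher with 4OHT, averaged 0.128, 0.364 and 0.189 CPM. The part of these markers in the PLAT result was not tested.

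The urokinase receptor, PLAUR (ENSG00000011422, GRCh38 19:43646095-43670547, minus strand), held 91.7, 111, 147, 130 and 182 CPM in DMSO siNT and 242 to 274 CPM in 4OHT siNT. That rise was 0.99 on a log2 scale (SE 0.12, adjusted p 1.66e-06 in edgeR). Its DMSO siNT libraries differed by tag, with 91.7 and 111 CPM in the V libraries and 130 to 182 CPM in the VM libraries. Both V libraries carried number 2, while 1 VM library carried number 2 and 2 carried number 4. Tag and number are therefore partly confounded in DMSO siNT. In a model with 1 term per group and tag, added after the data were seen, V was below VM by 0.59 on the log2 scale (SE 0.13, adjusted p 0.0398 in edgeR), against 0.765% of all genes called for that difference. Over VM libraries alone in that model the rise with 4OHT was 0.78 (SE 0.10, adjusted p 5.39e-06 in edgeR).

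The inhibitor SERPINE2 (ENSG00000135919, GRCh38 2:223975045-224039318, minus strand) went from 138, 120, 115, 178 and 207 CPM in DMSO siNT to 269 to 339 CPM in 4OHT siNT, a rise of 0.97 in log2 terms (SE 0.14, adjusted p 1.22e-05 in edgeR). In both groups the libraries with number 4 were the highest: 178 and 207 CPM in DMSO siNT, and 304, 317 and 339 CPM against 269 to 277 CPM in 4OHT siNT. The 2 of DMSO siNT were VM, as was its number 2 library at 115 CPM.

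SERPINB2 (ENSG00000197632, GRCh38 18:63871692-63903888, plus strand), which was lowest of the 5 in growing cells, held 19.3, 31.8, 32.7, 52.7 and 55.5 CPM in DMSO siNT. It held 358, 299, 382, 392, 360 and 339 CPM in 4OHT siNT, a log2 fold change of 3.21 (SE 0.21, adjusted p 4.26e-10 in edgeR). Within VM libraries, in the model with 1 term per group and tag, the rise was 2.92 (SE 0.19, adjusted p 1.22e-09 in edgeR), and that of PLAT was 2.98 (SE 0.15, adjusted p 5.05e-11 in edgeR). Another annotated gene, ENSG00000289724 (GRCh38 18:63897174-63917490, plus strand), reads through from the last exons of SERPINB2 into its neighbour and shares 20.0% of the SERPINB2 exon bases. Its row held 10.9 ± 3.6 CPM in DMSO siNT, 111 ± 8.5 CPM in 4OHT siNT and 138 ± 19.3 CPM in 4OHT siSMARCA4, or 27.6% to 31.2% of the SERPINB2 level in each group. How the counting divided shared pairs between these rows was not tested. With both rows summed, an alternative added after the data were seen, the rise with 4OHT was 3.24 (SE 0.21, adjusted p 2.23e-10 in edgeR).

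Levels were also compared per length, as RPKM (CPM per kilobase of merged exons). In DMSO siNT the order was PLAU at 315 ± 24.7 RPKM, PLAT at 45.9 ± 7.36, PLAUR at 29.7 ± 7.80, SERPINE2 at 16.9 ± 4.45 and SERPINB2 at 14 ± 5.58 RPKM. Only PLAU stood clear there by range, and each of the other neighbours in the order overlapped between libraries. Within every DMSO siNT library, however, the 5 genes stood in this order. The ratio of SERPINB2 to SERPINE2 within a library, for example, was at most 0.967. In 4OHT siNT the order was PLAU (1496 ± 65.4 RPKM), PLAT (360 ± 28.8), SERPINB2 (129 ± 12.2), PLAUR (59.0 ± 2.89) and SERPINE2 (33.1 ± 3.16), with no overlap between any neighbours. Over merged exons SERPINB2 had thus moved from the fifth place to the third. In 4OHT siSMARCA4 the same order held at 1599 ± 128, 205 ± 62.7, 183 ± 25.2, 61.0 ± 3.47 and 51.8 ± 7.4 RPKM, but PLAT overlapped SERPINB2 and PLAUR overlapped SERPINE2. The order of the means in each group was the same with the longest transcript as the length. In 4OHT siNT, however, SERPINB2 and PLAUR were then at 165 ± 15.5 and 163 ± 7.99 RPKM, and their libraries overlapped. Within a library, PLAU was 6.94 ± 0.64 times PLAT per length in DMSO siNT, 4.17 ± 0.18 times in 4OHT siNT and 5.32 to 13.5 times in 4OHT siSMARCA4. There the 3 V libraries were at 5.32 to 6.63 times and the 3 VM libraries at 10.2 to 13.5 times. Against DMSO siNT, at 6.16 to 7.82 times, the V libraries overlapped its lower end and the VM libraries all lay above it.

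**Figure D2:**
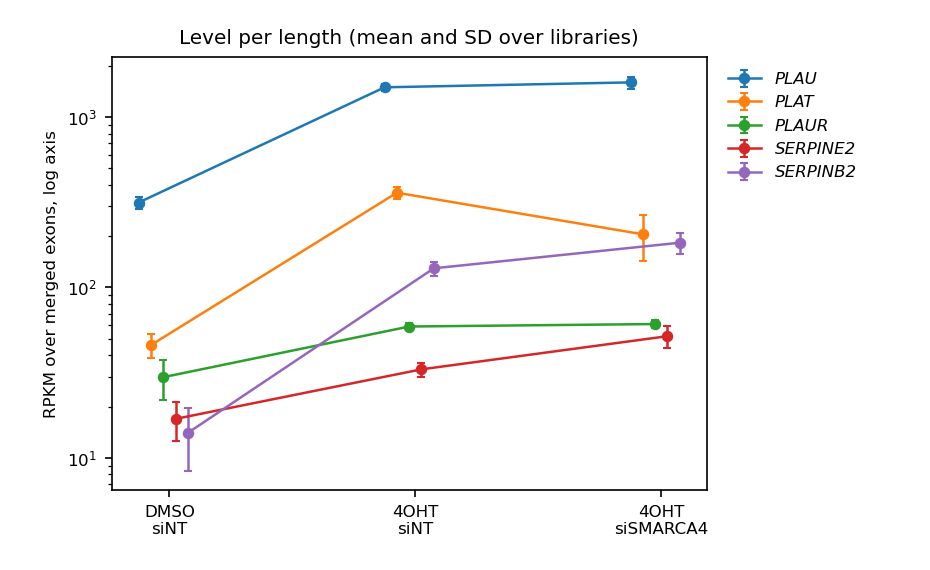
Mean RPKM over merged exons (y axis, log scale) with the SD over libraries for the 5 genes in DMSO siNT, 4OHT siNT and 4OHT siSMARCA4 (x axis). PLAU is highest in each group, and SERPINB2 goes from the lowest of the 5 at 14 RPKM in DMSO siNT to 129 RPKM in 4OHT siNT.

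Knockdown of SMARCA4 in senescent cells, 4OHT siSMARCA4 against 4OHT siNT, moved the members in different directions. PLAT fell to 57.0% of its level and SERPINE2 rose 1.57-fold. SERPINB2 was 1.41-fold higher, a difference that just missed the threshold. PLAU and PLAUR were at 107% and 103% of their level, and neither passed. Of all genes tested, 10.4% were called higher and 13.8% lower in this contrast.

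**Figure D3:**
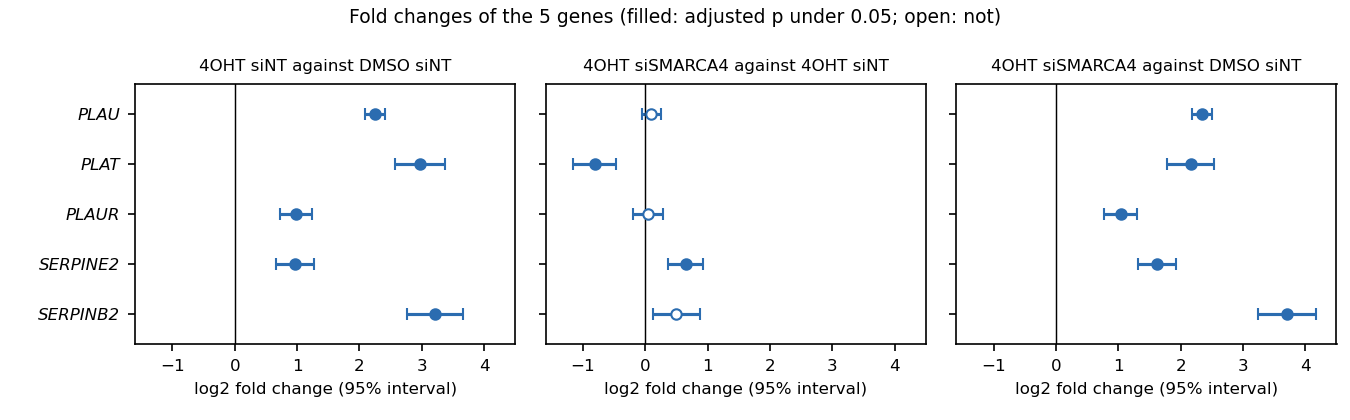
Log2 fold change (x axis) of each of the 5 genes (y axis) in the 3 comparisons, with 95% intervals, from the edgeR fit over 17 libraries. Filled points passed the adjusted p threshold of 0.05. All 5 are filled and right of 0 for 4OHT siNT against DMSO siNT, while for the knockdown PLAT lies at -0.81, SERPINE2 at 0.65 and the other three are open.

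PLAT in 4OHT siSMARCA4 was at 1277, 2002, 1305, 2157, 934 and 1886 CPM, and all 6 libraries lay below the lowest 4OHT siNT library at 2648 CPM, as held for 7.49% of all genes. The log2 fold change was -0.81 (SE 0.16, adjusted p 0.00178 in edgeR), and PLAT stayed well above DMSO siNT, by 2.16 on the log2 scale (SE 0.18, adjusted p 8.24e-09 in edgeR). With only the libraries of number 4 the knockdown difference was -0.75 and missed the threshold (adjusted p 0.0974 in edgeR). The knockdown libraries fell into those with the tag V, at 1886 to 2157 CPM, and those with VM, at 934 to 1305 CPM. In the model with 1 term per group and tag, V was above VM by 0.78 (SE 0.15, adjusted p 0.00745 in edgeR), a difference called for 3.7% of all genes. Against 4OHT siNT, whose libraries were all VM, the fall was -1.25 (SE 0.13, adjusted p 6.49e-06 in edgeR) for the VM libraries and -0.47 (SE 0.13, adjusted p 0.0252 in edgeR) for the V libraries. SMARCA4 moved the same way between the tags, at 82.7 to 127 CPM in V and 68.4 to 78.3 CPM in VM libraries (0.54, SE 0.12, adjusted p 0.0201 in edgeR), and the part of this difference in the PLAT result was not tested.

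SERPINE2 in 4OHT siSMARCA4 was at 516, 537, 494, 396, 373 and 465 CPM, and all 6 libraries exceeded the highest 4OHT siNT library at 339 CPM, as held for 4.54% of all genes. The log2 fold change was 0.65 (SE 0.13, adjusted p 0.00209 in edgeR). Its spread followed the siRNA number instead of the tag. The number 2 libraries held 494 to 537 CPM against 269 to 277 CPM in 4OHT siNT with number 2, and the number 4 libraries 373 to 465 CPM against 304 to 339 CPM. Set against the siNT libraries of the same number, the rise was 0.92 (SE 0.10) with number 2 and 0.36 (SE 0.10) with number 4, and the difference of -0.56 (95% interval -0.85 to -0.27) had an unadjusted p of 0.000977 and an adjusted p of 0.063 in edgeR, which misses the threshold. Fitted on the number 4 libraries alone, the difference of 0.40 missed the threshold (adjusted p 0.0813 in edgeR). By tag the rise was 0.65 in V and 0.64 in VM libraries.

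SERPINB2 in 4OHT siSMARCA4 was at 434, 564, 405, 577, 512 and 517 CPM. All 6 libraries exceeded the highest 4OHT siNT library, at 392 CPM, as held for 4.54% of all genes. The log2 fold change was 0.50 (SE 0.18, 95% interval 0.11 to 0.88), and its adjusted p of 0.0549 in edgeR missed the threshold. DESeq2 gave 0.51 with an adjusted p of 0.0394. In edgeR the adjusted p was 0.0381 without the low-count filter, 0.00191 with only the 2 groups compared and 0.289 with the replicate block. The call thus depends on the tool, the settings and the libraries used. By tag, the rise was 0.64 in V libraries (SE 0.16, adjusted p 0.0137 in edgeR) and 0.34 in VM libraries (SE 0.16, adjusted p 0.117 in edgeR), and V against VM differed by 0.30 (SE 0.18, adjusted p 0.424 in edgeR). With the readthrough row summed in, the difference was 0.46 (SE 0.18, adjusted p 0.066 in edgeR).

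PLAU in 4OHT siSMARCA4 ranged from 4150 to 5037 CPM and overlapped 4OHT siNT. The log2 fold change was 0.10 (95% interval -0.05 to 0.24, adjusted p 0.347 in edgeR). PLAUR ranged from 249 to 295 CPM, with a log2 fold change of 0.05 (95% interval -0.19 to 0.29, adjusted p 0.809 in edgeR). No member passed the test of a difference between siRNA numbers, for which 1.06% of all genes were called. Number and tag are partly confounded in 4OHT siSMARCA4: with number 2, 1 library was V and 2 were VM, and with number 4, 2 were V and 1 was VM.

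Against DMSO siNT, 4OHT siSMARCA4 held all 5 members higher, as did 26.5% of all genes. This comparison shares libraries with both of the others. The log2 fold changes were 2.34 for PLAU, 2.16 for PLAT, 1.04 for PLAUR, 1.61 for SERPINE2 and 3.71 for SERPINB2. SERPINB2 was thereby 13.1-fold above growing cells. Adjusted p-values in edgeR ranged from 5.02e-14 for PLAU to 8.36e-07 for PLAUR.

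**Figure D4:**
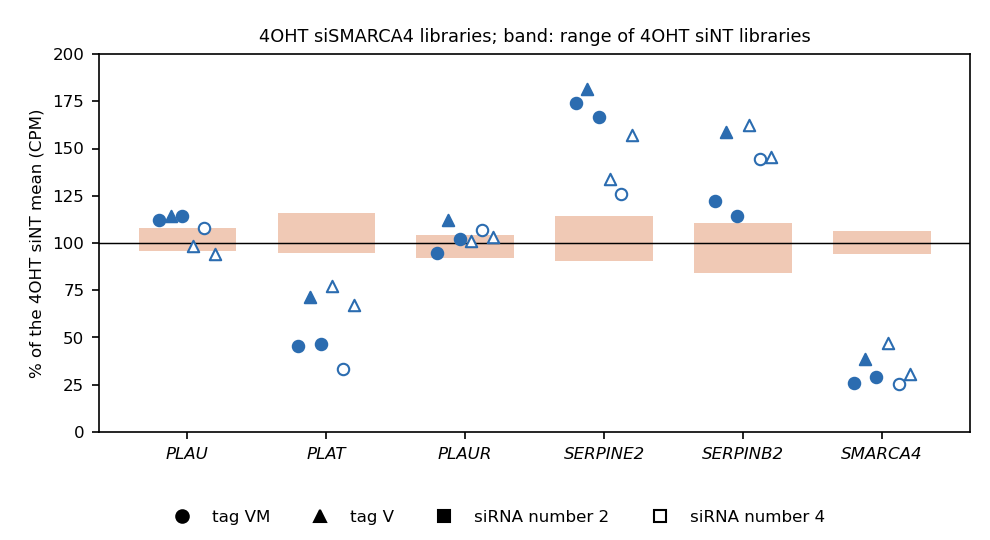
Level in each 4OHT siSMARCA4 library as a percentage of the 4OHT siNT mean (y axis, from 0) for the 5 genes and SMARCA4 (x axis); bands span the 4OHT siNT libraries, circles are VM, triangles V, filled symbols siRNA number 2 and open ones number 4. PLAT sits at 33.4% to 46.7% in VM and 67.4% to 77.1% in V libraries.

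The rest of the plasminogen system was read from 3 lists of 35 genes in all: plasminogen and its surface receptors, other inhibitors, and clearance or partner receptors. Of these 26 were tested. With 4OHT, 11 were called higher and 7 lower, against 27% and 27.4% of all genes, with a median log2 fold change of 0.15 against 0.00 over all genes. With the knockdown, 4 were called higher and 6 lower, against 10.4% and 13.8% of all genes, with a median of -0.13 against -0.02. The counts of the shorter lists and of neighbours are to be read against the same shares. Plasminogen itself (PLG) had 4, 2 and 1 counts over all libraries of DMSO siNT, 4OHT siNT and 4OHT siSMARCA4 and was not tested. Against DMSO siNT, 13 of the 26 were called higher and 10 lower in 4OHT siSMARCA4, against 26.5% and 28.6% of all genes, with a median of 0.11 against -0.01 over all genes.

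**Figure D5:**
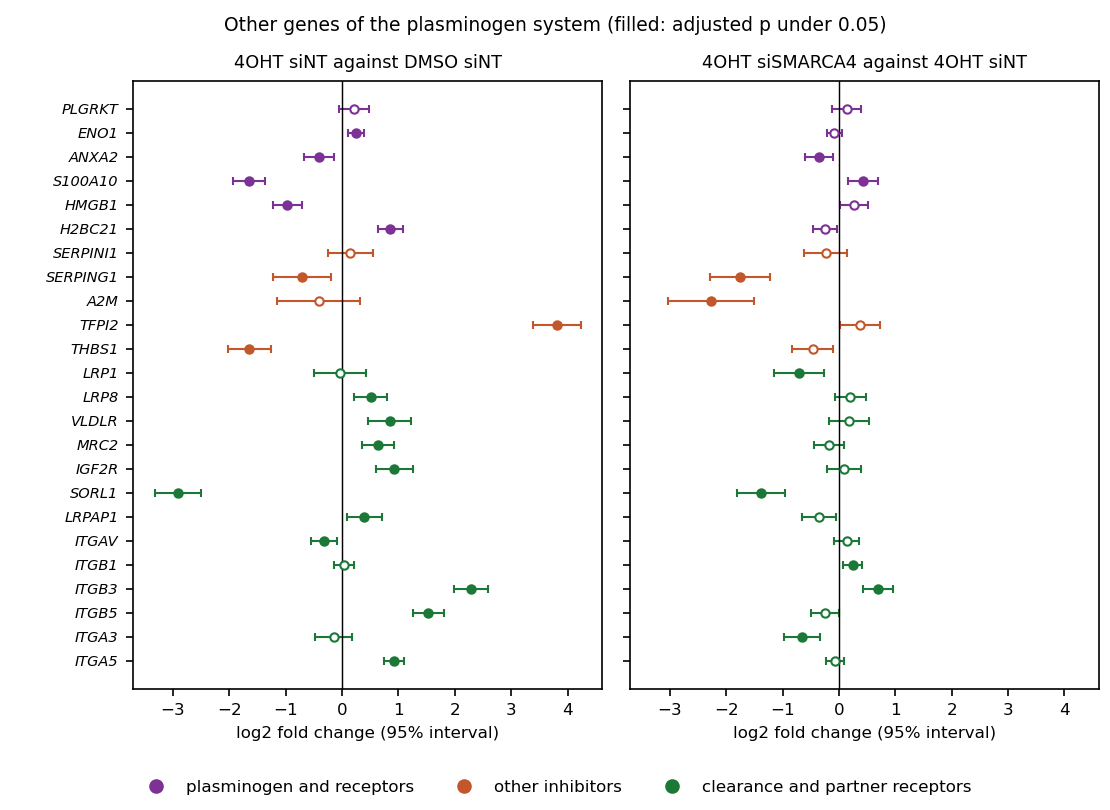
Log2 fold change with 95% intervals (x axis) of tested genes of the 3 lists (y axis, coloured by list) for 4OHT siNT against DMSO siNT (left) and for the knockdown in 4OHT (right). Filled points passed the adjusted p threshold of 0.05: TFPI2 at 3.81 and SORL1 at -2.91 lie farthest out on the left, A2M at -2.28 on the right.

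Of 6 tested plasminogen receptors, 2 rose and 3 fell with 4OHT (27% and 27.4% of all genes). H2BC21, a histone H2B that binds plasminogen at the cell surface, rose by 0.86 on the log2 scale (SE 0.11) and ENO1, the glycolytic enzyme enolase, by 0.25 (SE 0.07). S100A10, which with annexin A2 forms the best known plasminogen receptor, had a log2 fold change of -1.65 (SE 0.13), its partner ANXA2 -0.41 (SE 0.13) and HMGB1 -0.97 (SE 0.12). With the knockdown S100A10 rose by 0.42 (SE 0.13) and ANXA2 fell, with a log2 fold change of -0.35 (SE 0.12). The S100A10 call was lost without 4OHT siNT 2-1VM (0.37, adjusted p 0.0549 in edgeR). That of ANXA2 was lost without any 1 of 7 libraries, 4-1VM, 4-2VM and 4-3VM of 4OHT siNT and 2-1VM, 2-3V, 2-3VM and 4-2VM of 4OHT siSMARCA4 (-0.36 to -0.30, adjusted p 0.0631 to 0.097 in edgeR).

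Of 6 tested inhibitors outside the members, 1 rose and 2 fell with 4OHT, and none rose and 2 fell with the knockdown. TFPI2, a Kunitz inhibitor of plasmin, rose 14.1-fold with 4OHT from 59.0 CPM (3.81 on the log2 scale, SE 0.20, adjusted p 1.43e-11 in edgeR). THBS1, the matrix protein thrombospondin-1, fell from 2998 to 959 CPM (-1.64, SE 0.18). SERPING1, the C1 inhibitor, had a log2 fold change of -0.71 (SE 0.25) with 4OHT and of -1.76 (SE 0.25) with the knockdown, at 2.42 CPM in 4OHT siNT. A2M, the broad protease trap alpha-2-macroglobulin, fell with the knockdown from 3.83 to 0.785 CPM (-2.28, SE 0.36, adjusted p 0.000277 in edgeR).

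Of 14 tested clearance and partner receptors, 8 rose and 2 fell with 4OHT. The largest rises were in integrin subunits and the mannose 6-phosphate receptor, with log2 fold changes of 2.29 (SE 0.15) for ITGB3, 1.53 (SE 0.13) for ITGB5, 0.93 (SE 0.16) for IGF2R and 0.92 (SE 0.08) for ITGA5. SORL1 (-2.91, SE 0.20) and ITGAV (-0.32, SE 0.11) fell. With the knockdown 3 rose, among them ITGB3 by 0.69 (SE 0.13) and ITGB1 by 0.24 (SE 0.08). SORL1 (-1.39, SE 0.20), LRP1 (-0.70, SE 0.21), the endocytic receptor that clears complexes of activators with their inhibitors, and ITGA3 (-0.66, SE 0.15) fell. The LRP1 call was lost without 4-1VM of 4OHT siNT or 2-3V, 2-3VM or 4-2VM of 4OHT siSMARCA4 (-0.64 to -0.62, adjusted p up to 0.0529 in edgeR). That of ITGB1 was lost without any 1 of 9 of the 12 libraries (0.20 to 0.25, adjusted p 0.0517 to 0.0772 in edgeR), the exceptions being 4-3VM of 4OHT siNT and 2-3VM and 4-2VM of 4OHT siSMARCA4.

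Of 10 surface coagulation genes, 6 rose and 2 fell with 4OHT. The thrombin receptor F2RL3 rose from 0.0216 to 0.871 CPM (5.18, SE 0.36), THBD (thrombomodulin) from 1.2 to 24.5 CPM (4.34, SE 0.27), F2RL1 from 15.4 to 251 CPM (4.03, SE 0.15) and PROCR from 16.5 to 44.2 CPM (1.42, SE 0.09). F10 (-3.16, SE 0.19) and PROS1 (-0.33, SE 0.10) fell. With the knockdown THBD (1.26, SE 0.21), TFPI (0.48, SE 0.10) and F2RL1 (0.41, SE 0.12) rose, and F3, tissue factor (-0.65, SE 0.14), F2RL2 (-0.64, SE 0.17) and PROCR (-0.25, SE 0.09) fell. The PROCR call was lost without any 1 of 7 libraries, 4-1VM, 4-2VM, 2-3VM and 4-3VM of 4OHT siNT and 2-1VM, 2-3VM and 4-2VM of 4OHT siSMARCA4 (-0.27 to -0.21, adjusted p from 0.054 in edgeR).

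Of 9 tested genes for growth factor and membrane proteases, 4 rose and 3 fell with 4OHT: CDCP1 (3.56, SE 0.26), DPP4 (1.44, SE 0.11), HGF (1.02, SE 0.23) and FAP (0.52, SE 0.12) rose, and MET (-2.10, SE 0.16), SPINT2 (-1.24, SE 0.36) and HTRA1 (-0.48, SE 0.10) fell. HGF is a growth factor that serine proteases activate, and MET is its receptor. With the knockdown only HTRA1 was called among these 9 (-0.60, SE 0.09).

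SERPINB2 lies in a cluster of clade B serpin genes. Of 6 tested clade B genes outside the members, which were listed from this cluster and from elsewhere in the genome, 2 rose and 3 fell with 4OHT. SERPINB4 had 2 counts over the DMSO siNT libraries and averaged 2.35 CPM in 4OHT siNT, SERPINB8 rose by 1.40 (SE 0.12), and SERPINB7 (-1.16, SE 0.27), SERPINB9 (-1.01, SE 0.25) and SERPINB1 (-0.31, SE 0.10) fell. With the knockdown SERPINB4 (0.99, SE 0.32) and SERPINB1 (0.70, SE 0.10) rose, and none fell. The SERPINB4 call was lost without any 1 of 5 libraries, 4-1VM, 2-3VM and 4-3VM of 4OHT siNT and 2-3V and 4-2V of 4OHT siSMARCA4 (0.65 to 0.99, adjusted p 0.0521 to 0.0955 in edgeR). Of 5 tested serpins of other clades, SERPINA1 (4.12, SE 0.63), SERPIND1 (4.03, SE 0.23) and SERPINA3 (3.32, SE 0.58) rose with 4OHT and the collagen chaperone SERPINH1 fell (-0.44, SE 0.06). These rises were at low levels. From DMSO siNT to 4OHT siNT SERPINA1 went from 0.143 to 2.58 CPM, SERPIND1 from 0.319 to 5.26 CPM and SERPINA3 from 0.0289 to 0.307 CPM. SERPINF1 (-1.87, SE 0.23), SERPINA1 (-1.64, SE 0.49) and SERPINH1 (-0.47, SE 0.06) fell with the knockdown.

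In 4OHT siSMARCA4 against DMSO siNT, 7 of the 10 surface coagulation genes were called higher and 3 lower. Of the 9 tested growth factor and membrane protease genes 4 were higher and 3 lower, of the 6 clade B genes 3 were higher and 2 lower, and of the 5 serpins of other clades 3 were higher and 2 lower.

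Many of the calls for listed genes missed the threshold with fewer libraries or another model, some of them at a fold change about as large as with all libraries. With the number 4 libraries alone, the knockdown calls lost included those of ANXA2, S100A10, SERPING1, SORL1, LRP1, ITGB1, F2RL1, F3, F2RL2, PROCR, HTRA1, SERPINB4 and SERPINA1. SERPINA1 was then at -0.42 (adjusted p 0.642 in edgeR), F3 at -0.30 (adjusted p 0.275 in edgeR), F2RL2 at -0.34, SERPING1 at -1.04, SORL1 at -0.74 and HTRA1 at -0.39. LRP1 was at -0.64 (adjusted p 0.216 in edgeR), close to its value with all libraries. The calls of F2RL1 (0.23 to 0.49), S100A10 (0.27 to 0.48) and PROCR (-0.34 to -0.16) were lost in 4 alternatives each, those of ANXA2 (-0.45 to -0.27) and SERPINB4 (0.08 to 1.29) in 5 and that of ITGB1 (0.10 to 0.29) in 6. ITGB3 lost its call with the replicate block (0.68) at nearly the same fold change. For 4OHT siNT against DMSO siNT, the calls of ENO1 (0.12 to 0.29) and SERPING1 (-0.65 to -0.33) were lost in 3 alternatives each, those of ITGAV (-0.40 to -0.35), SERPINB1 (-0.38 to -0.19) and SPINT2 (-1.38 to -1.14) in 2 each, and that of HGF with number 2 alone (0.56).

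Genes with a start within 100000 bp of a member's start were counted. Of all genes tested, 27% were called higher and 27.4% lower with 4OHT, and 10.4% higher and 13.8% lower with the knockdown. Around PLAU 6 genes were tested, of which 4 rose and 1 fell with 4OHT and none rose and 2 fell with the knockdown; the 2 were NDST2 (-0.34, SE 0.08) and ENSG00000272916 (-0.27, SE 0.09), which start side by side on the same strand and could share reads. Around PLAT 3 were tested, with AP3M2 higher (0.22, SE 0.07) and IKBKB lower (-0.29, SE 0.08) in the knockdown. Around PLAUR 11 were tested, of which 7 rose with 4OHT and 3 fell with the knockdown, CADM4 (-0.80, SE 0.21) and ENSG00000268361 (-0.60, SE 0.14) the farthest. Some of the 7 start close together on the same strand and could share reads. Around SERPINE2 3 were tested, and WDFY1 (0.43, SE 0.10) and MRPL44 (0.29, SE 0.10) were higher with the knockdown, as SERPINE2 was. Around SERPINB2 all 4 tested genes rose with 4OHT, the readthrough gene among them, and HMSD fell with the knockdown (-0.33, SE 0.11).

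The genes whose log2 CPM followed each member most closely over the 17 libraries were sought among 13216 genes with a symbol and at least 1 CPM on average. The libraries fall into 3 groups, so these values describe mainly a like order of group levels. GDF15 (Pearson r 0.996), CD82 (0.996) and BMP2 (0.996) were nearest to PLAU. COL10A1 (0.992), a collagen X chain, WLS (0.991), which carries Wnt proteins to the surface, and the tropomyosin pseudogene TPM4P2 (0.99) were nearest to PLAT, and COL10A1 averaged 0.275, 16.5 and 4.7 CPM in the 3 groups. DDA1 (0.983), HTRA2 (0.978) and GRPEL1 (0.978) were nearest to PLAUR. MT1L (0.977), SFXN1 (0.972) and CD55 (0.962) were nearest to SERPINE2, and the means of all 3 stood in ascending order from DMSO siNT over 4OHT siNT to 4OHT siSMARCA4. The collagenase MMP1 (0.99), ANGPTL4 (0.989) and SLC16A6 (0.987) were nearest to SERPINB2, and MMP1 averaged 476, 5965 and 7365 CPM. TPM4P2 and MT1L resemble other expressed genes closely and could share reads with them. Ranked by Spearman's rho, the first 3 genes were others for PLAU, PLAT, PLAUR and SERPINB2, while MT1L and CD55 were among the first 3 for SERPINE2 on both scales. Among the members themselves the 10 pairs had r from 0.699 (PLAT with SERPINE2) to 0.967 (PLAU with SERPINB2).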

How the data were processed

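RNA was selected for poly(A), prepared with a strand-specific kit and sequenced from both ends in 17 libraries of IMR90 ER:RAS cells. Each library has 1 deposited table, in which the authors give expected counts as whole numbers per gene and per repeat locus, not normalised. To make it, the authors trimmed with Cutadapt 4.7, aligned to GRCh38 with HISAT2 2.2.1 keeping up to 100 alignments, and counted with TElocal, reverse stranded, in the mode that divides multi-mapping pairs by likelihood. The methods name an Ensembl annotation, but 62700 of the 62754 gene rows were the genes of GENCODE 44, which gave symbols and positions, and 54 were not in it.

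Repeat loci were summed by subfamily and entered the fit. filterByExpr (count 10, total 15, by the 3 groups) left 19473 genes and 1026 subfamilies, and TMM factors ranged from 0.949 to 1.08. The quasi-likelihood test of edgeR 4.0.16 in R 4.3.3 used group means over all 17 libraries, and p-values were adjusted over genes by Benjamini-Hochberg. SE is the log2 fold change over the root of the F statistic. Alternatives were DESeq2 1.42.0, other scaling, no filter, gene rows alone, the 2 groups compared, the tag, either siRNA number, a replicate block and each library left out. RPKM used merged exons, and likeness used log2 CPM with a prior count of 2. Libraries of a group differed beyond sampling noise (lowest chi-square per degree of freedom 4.39).

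The members and lists were chosen with earlier results of these data known. Named were the members, up to 4 called rises and 4 called falls of each list and comparison, the 3 genes most like each member, up to 2 neighbours each and SMARCA4. For 4OHT siSMARCA4 against DMSO siNT the lists are given by counts alone, a departure from that rule, and some listed genes enter the counts but are not reported here by name. Figures were drawn with matplotlib 3.10.9.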

Additional observations from a re-analysis of the deposited data

Results flagged for a closer look

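Over the 5 members and 3 groups, 15 sets of libraries were examined for a library that stands apart from the rest of its group by Dixon's criterion, and chance alone flags about 1 in 20. It picked out 1: PLAT in the 4OHT siNT library with siRNA number 4 and tag 2VM, at 3244 CPM, where the other five held 2648 to 2767 CPM. Without this library the rise of PLAT with 4OHT and its fall with the knockdown were both still called, the latter at -0.76 on the log2 scale (adjusted p 0.00503 in edgeR).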

How the results depend on the processing

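All 5 calls of a rise with 4OHT, and all 5 against DMSO siNT for the knocked-down cells, were kept in direction and side of the threshold under every alternative run. For the knockdown, PLAT and SERPINE2 were not called with siRNA number 4 libraries alone (-0.75 and 0.40). SERPINB2 became called with DESeq2 (0.51), without the low-count filter (0.54), on gene rows alone (0.51), with only the 2 groups compared (0.50), with the tag as a covariate (0.61), with number 4 alone (0.68) and, in the model by tag added after the data were seen, for V libraries (0.64). The covariate assumes 1 tag difference for all groups, and 4OHT siNT held VM libraries alone. For SERPINB2, V against VM was -0.88 (SE 0.21) in DMSO siNT but 0.30 (SE 0.18) in 4OHT siSMARCA4. Between VM libraries, in the model by tag, the knockdown difference was 0.34 and not called (adjusted p 0.117 in edgeR). Set against siNT of the same number, it was 0.35 (SE 0.17) with number 2. The adjusted p of SERPINB2 ranged from 0.00191 to 0.289 over the alternatives. With each library left out in turn, the knockdown differences ranged from -0.92 to -0.70 for PLAT, 0.60 to 0.70 for SERPINE2 and 0.45 to 0.55 for SERPINB2, and no call of a member changed. Genes called for the knockdown numbered 4703, against 1198 with number 4 alone and 3045 with the replicate block. The plasminogen system list went from 10 to 4 calls with number 4 alone. Against DMSO siNT, 10725 became 6329 with the block.

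Replicate labels were shared by only some libraries, and libraries with the same label did not deviate together (r from -0.45 to 0.297), so the labels were not taken to pair samples. Under the replicate block, which left 4 residual degrees of freedom, the knockdown difference was -1.31 for PLAT, 0.65 for SERPINE2 and 0.26 for SERPINB2. No V library shared its label with another library, so differences under the block rest on VM libraries alone. In the model by tag, the VM differences were -1.25, 0.64 and 0.34 in the same order. No call of a listed gene changed sign in 2273 alternatives over 107 results, and 113 fell short of the threshold. Values per length moved with the transcript model (PLAT 360 to 808 RPKM in 4OHT siNT) while the order of their means held. With the longest transcript, SERPINB2 at 165 RPKM and PLAUR at 163 RPKM in 4OHT siNT were not separated.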
